A study of Mus musculus with 20 samples.

Results

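Chemokines are small secreted proteins that guide the movement of leukocytes, and the genes that encode them and their receptors were followed here in mouse white adipose tissue. The set was taken by name: every gene whose symbol is Ccl, Ccr, Cxcl, Cxcr or Ackr with a digit behind it, together with Cx3cl1, Cx3cr1, Xcl1 and Xcr1, without pseudogenes. The set described here holds 61 of the 56805 annotated genes, 39 for ligands and 22 for receptors. RNA sequencing covered 20 mice in 4 groups of 5: high-fat diet with Tibetan tea given as a water extract (called high-fat tea below), high-fat diet with water (high-fat water), chow with the same tea (chow tea), and chow with water (chow water). The mice had been allotted at random and had free access to food and drink for 10 weeks. The sources used here do not give the fat depot, the strain, sex and age of the mice or the fat content of the diet.

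A chemokine binds a G protein-coupled receptor on a leukocyte, and the receptor signals through an inhibitory G protein to phosphoinositide 3-kinase and Rac, which steer the cell along the gradient. CC chemokines act mostly on monocytes, eosinophils, dendritic cells and lymphocytes, while CXC chemokines act on neutrophils, lymphocytes and progenitor cells. Atypical receptors bind chemokines without this signal and remove or move them. In fat of obese mice, CCL2 and its receptor CCR2 are known for the recruitment of monocytes that become macrophages.

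Of the 61 genes, 47 had enough reads to be tested, 29 ligands and 18 receptors, with 166 to 580185 reads over the 20 libraries. The other 14 held 0 to 133 reads in all, and were Ccl1, Ccl20, Ccl21b, Ccl21d, Ccl26, Ccl27b, Ccr1l1, Ccr6, Ccr8, Cxcl3, Cxcl5, Cxcl15, Cxcl17 and Cxcr1. The libraries held 53047057 to 93314761 reads in genes. Levels are given as CPM, which are read counts relative to all reads in genes of the library after scaling for composition. Each group's 5 values are given in the order of replicates 1 to 5, and the 15 genes given this way are those that passed a test, the most abundant gene of each role per kilobase of exons, and Ccl2, Ccr2, Cx3cr1 and Cxcl12. A gene was called when its p-value from edgeR's quasi-likelihood test, adjusted by the Benjamini-Hochberg method over all 21306 genes tested, lay below 0.05, and such p-values reflect how much mice of 1 group varied.

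Adipocyte markers were present in every library, with the 10 genes of that list summing to between 12870 and 67620 CPM. Transcripts of other organs stood out in 3 libraries. Pancreatic acinar genes summed to 583500 CPM in chow water replicate 1, which also held 5152 CPM of an intestinal list. Kidney genes summed to 24320 CPM in high-fat tea replicate 4, and genes of the male genital tract and adrenal gland to 42740 CPM in high-fat water replicate 4. Skeletal muscle genes summed to 4216 to 32590 CPM in 6 further libraries.

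Per kilobase of exons, the most abundant ligands in high-fat tea were Ccl11 at 86.7 ± 36.9 and Ccl6 at 80.6 ± 44.2 CPM per kilobase (mean ± SD, n = 5). In high-fat water they were Ccl6 at 104 ± 47.01 and Ccl11 at 93.5 ± 23.0. Ccl6 encodes a myeloid CC chemokine of rodents, and Ccl11 encodes eotaxin, which draws eosinophils through CCR3. These neighbours in the order differed by less than their SD in both high-fat groups, and Cxcl12, at 49.8 ± 11.8 in high-fat tea and 41.6 ± 6.96 in high-fat water, lay below both. In chow tea the order was Ccl6 at 105 ± 33.4, Ccl11 at 59.1 ± 4.75 and Cxcl12 at 57.7 ± 11.7, and in chow water the same 3 stood at 98.9 ± 36.5, 55.8 ± 12.2 and 39.1 ± 13.7. In chow tea Ccl11 and Cxcl12 differed by less than their SD. Among receptors Ackr3, an atypical receptor of CXCL12, and Cxcr4, its signalling receptor, led in all 4 groups. Ackr3 stood at 19.1 ± 5.34, 24.3 ± 6.44, 12.5 ± 3.26 and 14.8 ± 6.12 CPM per kilobase in high-fat tea, high-fat water, chow tea and chow water. Cxcr4 stood at 7.66 ± 5.51, 25.1 ± 24.9, 8.21 ± 5.71 and 8.26 ± 3.97 in the same order of groups, so that it topped Ackr3 in high-fat water only, by less than its SD there.

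The sum over the receptor genes was 93.8 to 174 CPM in high-fat tea, 152 to 243 in high-fat water, 86.6 to 159 in chow tea and 74.2 to 175 in chow water. The median was highest in high-fat water, at 218 CPM against 104 in chow water, and the ranges overlapped. The sum over the ligands overlapped widely, at 597 to 1074 CPM in high-fat tea, 670 to 1274 in high-fat water, 802 to 1070 in chow tea and 703 to 1052 in chow water.

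High-fat feeding without tea was compared with chow without tea. In high-fat water, transcripts of the monocyte chemokines Ccl2 and Ccl7, the neutrophil chemokine Cxcl1, the CXC chemokine Cxcl14 and the receptor Ccr7 were higher than in chow water. Transcripts of Cxcl13, a B-cell chemokine, and of Ccl25, a chemokine of gut and thymus, were lower. The Ccl25 call rested on chow water replicate 1, the library with pancreatic and intestinal transcripts, and was lost without it. These 7 of 47 genes (14.9%) stood beside 15.2% of all genes tested, so the share called was near the background. In the higher direction it was 5 of 47 beside 8.06%, and in the lower direction 2 of 47 beside 7.11%. The groups did not overlap for 7 of the 47 genes, beside 12.9% of all genes, with 6 higher beside 7.34% and 1 lower beside 5.59%. The median log2 fold change of the 47 genes was 0.24, beside 0 over all genes, and 28 lay above 0. In bulk tissue, fewer cells of a type and less RNA per cell cannot be told apart.

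Promoter sequences are shown for 3 of the called genes, since the motifs in them differ. They come from RefSeq on GRCm38.p6, hold 300 bases from 250 before the start of transcription to 50 from it, and are written 5′ to 3′ on the gene's strand. The table held 47 of the 61 genes with 54 promoters, and Ccl2, Ccl7 and Ccr7 were not among them. Capitals mark matches to a motif. The Cxcl1 window is chr5:90890995-90891294 on the plus strand, that of Cxcl14 is chr13:56296502-56296801 on the minus strand, and that of Cxcl13 is chr5:95956689-95956988 on the plus strand.
Cxcl1: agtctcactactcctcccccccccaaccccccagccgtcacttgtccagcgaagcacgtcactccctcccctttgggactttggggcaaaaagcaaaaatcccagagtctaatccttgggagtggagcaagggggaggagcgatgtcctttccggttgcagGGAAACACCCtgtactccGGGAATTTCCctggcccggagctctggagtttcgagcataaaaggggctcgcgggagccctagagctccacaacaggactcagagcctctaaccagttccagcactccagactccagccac
Cxcl14: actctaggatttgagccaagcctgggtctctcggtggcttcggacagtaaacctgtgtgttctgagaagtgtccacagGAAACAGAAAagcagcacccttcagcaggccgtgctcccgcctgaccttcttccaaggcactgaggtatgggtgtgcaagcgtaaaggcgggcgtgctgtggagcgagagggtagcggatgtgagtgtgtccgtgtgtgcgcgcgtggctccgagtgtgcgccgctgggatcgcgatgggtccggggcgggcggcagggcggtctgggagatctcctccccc
Cxcl13: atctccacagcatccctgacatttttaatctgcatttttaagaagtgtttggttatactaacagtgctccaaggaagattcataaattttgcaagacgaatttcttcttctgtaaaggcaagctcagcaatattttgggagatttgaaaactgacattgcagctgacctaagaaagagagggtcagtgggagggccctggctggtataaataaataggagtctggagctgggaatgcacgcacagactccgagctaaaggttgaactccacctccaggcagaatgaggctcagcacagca

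Both strands were searched for 3 motifs. An NF-kappaB type motif, GGGNNTTTCC, was in 1.61% of all 32544 promoters of the same length. The Cxcl1 window held it as GGGAATTTCC, starting 71 bases before the start of transcription, and a match on the other strand, where the gene's strand reads GGAAACACCC, starting 89 bases before it. Ccl9, Ccl20, Ccr3, Cxcl2 and Cxcl3 held it too, and Cxcl2 and Cxcl3 carried the same letters GGGAATTTCC as Cxcl1. Cxcl1, Cxcl2, Cxcl3, Cxcl5 and Cxcl15 lie within 147 kilobases of chromosome 5. An interferon response type motif, GAAANNGAAA, was in 3.45% of all promoters and, among these genes, in those of Ccl19, Cxcl10 and Cxcl14. In Cxcl14 it read GAAACAGAAA, 172 bases before the start. An AP-1 type motif, TGANTCA, was in 7.79% of all promoters and in 9 of the 47 genes that had a promoter sequence. None of the 9 was called, and Ccl27b and Ccr1l1 among them had too few reads to be tested. The Cxcl13 window held none of the 3 motifs. A match in this window is a description of letters.

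Of the 9 ligands that attract monocytes, 2 were called. Ccl2 (GRCm39 chromosome 11, 81926397 to 81928279, plus strand) encodes the main ligand of CCR2. Ccl2 stood at 18.4, 6.56, 7.61, 5.09 and 4.26 CPM in high-fat water, against 0.652, 2.57, 1.64, 1.97 and 3.53 in chow water. Every high-fat water library lay above every chow water library, and replicate 1 stood highest. The means were 8.39 ± 5.76 and 2.07 ± 1.07 CPM (SD, n = 5 each), and Ccl2 rose by 2.01 on the log2 scale (SE 0.59, adjusted p = 0.0301, edgeR's quasi-likelihood test).

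Ccl7 (chromosome 11, 81936538 to 81938351, plus strand), the neighbour of Ccl2, encodes another ligand of CCR2. It stood at 11.7, 2.07, 4.02, 2.81 and 2.85 CPM in high-fat water, against 0.391, 1.57, 1.102, 1.14 and 1.92 in chow water. The groups did not overlap, by a narrow gap, and high-fat water replicate 1 again stood highest. Ccl7 rose by 1.93 (SE 0.60, adjusted p = 0.0386). Over fits that left out 1 library each, the change of Ccl2 ran from 1.5 to 2.29 and that of Ccl7 from 1.25 to 2.15. The Ccl2 call was lost when any of the first 4 chow water replicates or high-fat water replicate 1 was left out. The Ccl7 call was lost in the same 5 fits and in the one without high-fat water replicate 3.

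The other 7 monocyte ligands were not called, and the median of all 9 was 0.56. Ccl6 stood at 293, 164, 257, 96.7 and 126 CPM in high-fat water, against 97.5, 164, 253, 138 and 234 in chow water, with log2 0.08 (SE 0.40, adjusted p = 0.919). The groups overlapped over most of their range. Ccl2, Ccl7, Ccl11, Ccl12, Ccl8 and Ccl1 lie within 270 kilobases of chromosome 11, and of the 5 tested there Ccl2 and Ccl7 were called. Ccl5, Ccl9, Ccl6, Ccl3 and Ccl4 lie within 139 kilobases further along and none was called. Log2 values there lay between -0.55 for Ccl5, a T-cell chemokine, and 0.87 for Ccl9, a myeloid chemokine.

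Of the 7 other CC ligands tested, Ccl25 was called. Ccl11 (chromosome 11, 81948649 to 81953781, plus strand) stood at 99.9, 103, 132, 62.97 and 108 CPM in high-fat water, against 45.2, 57.6, 70.6, 51.4 and 76.8 in chow water. Its groups overlapped, with 4 of 5 high-fat water libraries above all chow water libraries, and it was not called (log2 0.75, SE 0.26, adjusted p = 0.0567). Without the 3 libraries with transcripts of other organs it was called (log2 0.79, adjusted p = 0.0055).

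Ccl25 (chromosome 8, 4375210 to 4410020, plus strand) encodes the ligand of CCR9, which brings lymphocytes to the gut. It stood at 3.76, 4.97, 3.55, 3.57 and 5.62 CPM in high-fat water, against 193, 6.101, 8.496, 6.87 and 4.53 in chow water. One library, chow water replicate 1, stood far above all others, and the other 4 overlapped with high-fat water. Ccl25 fell by 3.35 on the log2 scale (SE 0.86, adjusted p = 0.0152), and without chow water replicate 1 the value was -0.65 and was not called (adjusted p = 0.0791). The same library held the pancreatic and intestinal transcripts. Ccr9 was also highest there, at 3.94 CPM beside at most 0.71 CPM in any other library. Of the exonic bases of Ccl25, 2.74% overlap Elavl1 on the opposite strand, and the counting did not use strand.

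The lymphoid ligand Cxcl13 (chromosome 5, 96104810 to 96108927, plus strand) attracts B cells through CXCR5. It stood at 11.04, 3.16, 4.82, 1.16 and 2.46 CPM in high-fat water, against 14.01, 26.3, 70.5, 27.04 and 38.7 in chow water. No high-fat water library reached the lowest chow water library. The means were 4.53 ± 3.87 and 35.3 ± 21.5 CPM (SD, n = 5 each), a fall by 2.96 on the log2 scale (SE 0.70, adjusted p = 0.0102). Cxcl13 was called in all 10 fits that left out 1 library, at -3.61 to -2.55. Cxcr5 was not called (log2 -0.25, adjusted p = 0.815). Of 9 B-cell markers 0 were called, and their sum was 6.65 to 20.5 CPM in high-fat water and 3.90 to 24.8 in chow water. Of 7 mesothelial markers, Krt19, Krt8 and Upk1b were lower and 0 higher, and their sum was 35.1 to 140.5 CPM in high-fat water and 88.0 to 1127 in chow water. The 1127 CPM was that of chow water replicate 1, which held the pancreatic and intestinal transcripts. The next highest was 304.9 CPM in chow water replicate 4. The part of B cells and mesothelial cells in the Cxcl13 result was not tested. Ccl19 and Ccl21a, the ligands of CCR7, were not called, at -1.32 and -0.79; reads of Ccl21a can be exchanged with its near-identical copies Ccl21b and Ccl21d, so its value is uncertain.

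Among CXC ligands of neutrophils, Cxcl1 (chromosome 5, 91039100 to 91040974, plus strand), a ligand of CXCR2, stood at 3.21, 3.41, 2.04, 3.23 and 1.76 CPM in high-fat water, against 0.391, 0.577, 0.256, 0.381 and 1.34 in chow water. The groups did not overlap and all values were low. Cxcl1 rose by 2.20 (SE 0.61, adjusted p = 0.0223), with 2.01 to 2.76 over the fits without 1 library, and the call was lost without chow water replicate 2, 3 or 4. Cxcl2, its neighbour, was not called (log2 1.11, adjusted p = 0.389). Of 8 tested neutrophil markers 0 were called, Ly6g was at 0 in 9 libraries, and their sum was 17.0 to 114 CPM in high-fat water and 10.4 to 20.7 in chow water. The 114 CPM was that of high-fat water replicate 2 alone, and the next highest was 23.46 CPM in replicate 1. The part of neutrophils in the Cxcl1 result was not tested.

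The interferon-inducible ligands of CXCR3, Cxcl9, Cxcl10 and Cxcl11, were not called. Cxcl9 stood at 72.7, 93.2, 58.7, 49.0 and 80.3 CPM in high-fat water, against 12.7, 27.8, 55.0, 43.3 and 47.4 in chow water, with 1 chow water library inside the range of high-fat water (log2 0.93, SE 0.36, adjusted p = 0.0876). Cxcl10 had an adjusted p of 0.0514 with groups that did not overlap (log2 0.90). Their receptor Cxcr3 stood at log2 -0.29 (adjusted p = 0.463).

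Cxcl14 (chromosome 13, 56436456 to 56444364, minus strand) encodes a CXC chemokine of epithelia and fat with no settled receptor. It stood at 39.6, 31.5, 19.9, 28.1 and 45.2 CPM in high-fat water, against 16.6, 11.6, 12.6, 10.2 and 12.4 in chow water. The groups did not overlap. The means were 32.9 ± 9.895 and 12.7 ± 2.39 CPM (SD, n = 5 each), and Cxcl14 rose by 1.38 (SE 0.32, adjusted p = 0.00896), the lowest adjusted p among the 47 genes. It was called in all 10 fits without 1 library, at 1.23 to 1.51.

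Cxcl12 (chromosome 6, 117145496 to 117158328, plus strand), which holds progenitor cells and lymphocytes in place through CXCR4, stood at 353, 384, 337, 245 and 383 CPM in high-fat water, against 183, 250.4, 386, 311 and 469 in chow water. The high-fat water values lay inside the chow water range (log2 0.09, SE 0.23, adjusted p = 0.828).

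**Figure D1:**
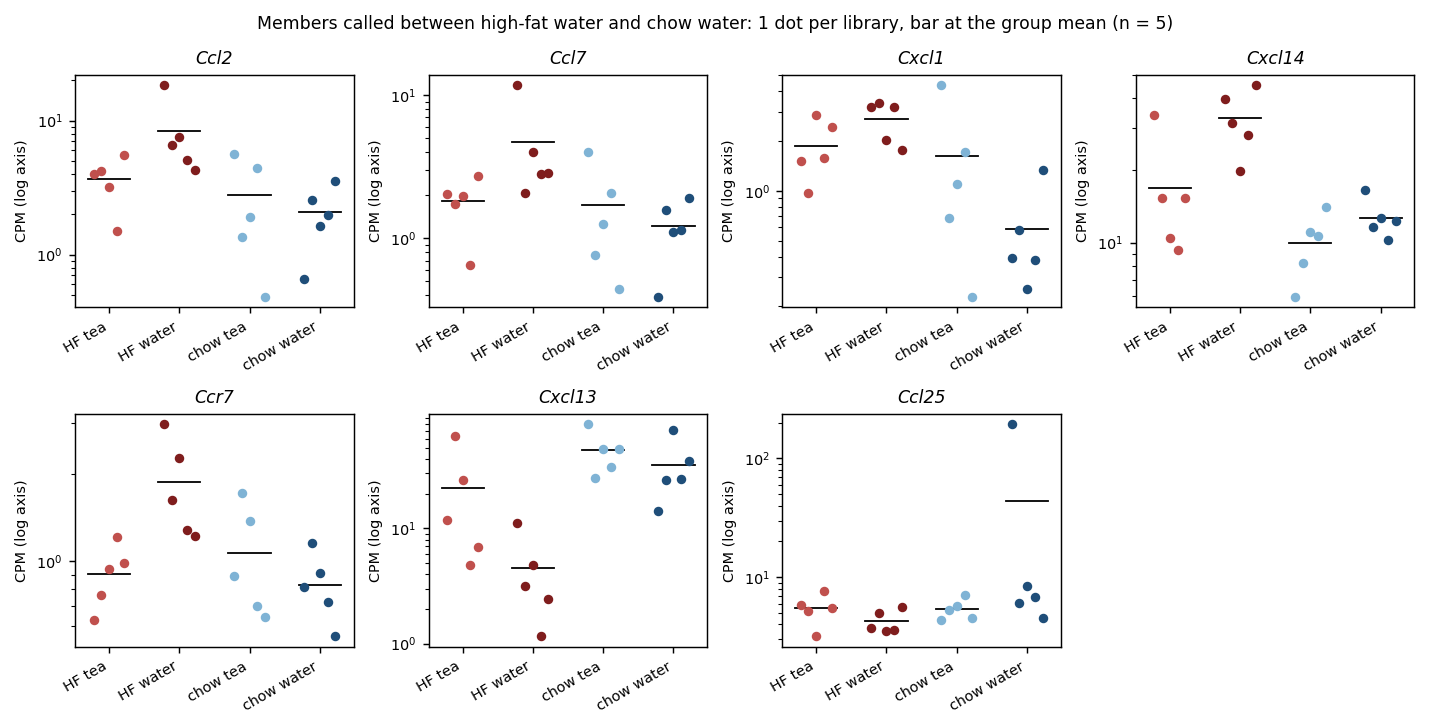
Levels of the 7 called genes in CPM on log axes, 1 dot per library and a bar at the mean of each group of 5. High-fat water lies above chow water without overlap for Ccl2, Ccl7, Cxcl1, Cxcl14 and Ccr7 and below it for Cxcl13, while the Ccl25 mean of chow water rests on 1 library at 193 CPM.

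Of the 7 CC receptors tested, Ccr7 was called. Ccr7 (chromosome 11, 99035022 to 99045903, minus strand), which brings dendritic cells and T cells to lymph nodes, stood at 2.97, 1.62, 2.28, 1.29 and 1.22 CPM in high-fat water, against 0.814, 1.15, 0.9098, 0.725 and 0.552 in chow water. The groups did not overlap, by a narrow gap. Ccr7 rose by 1.17 (SE 0.33, adjusted p = 0.0223), and the value was 0.95 and not called without high-fat water replicate 1 and 1.13 and not called without chow water replicate 4. Of 10 T-cell markers, Cd247 and Trac were higher and Cd3e lower, with sums of 10.8 to 17.6 CPM in high-fat water and 7.41 to 33.6 in chow water. The 33.6 CPM was that of chow water replicate 1, the library with pancreatic and intestinal transcripts. The next highest chow water sum was 14.18 CPM in replicate 2. Of 7 dendritic cell markers, Batf3 and Clec9a were higher and Zbtb46 lower, with sums of 40.4 to 57.2 CPM in high-fat water and 56.6 to 74.8 in chow water. The part of these cells in the Ccr7 result was not tested.

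Ccr2 (chromosome 9, 123901987 to 123913594, plus strand), the receptor of CCL2 and CCL7 on monocytes, stood at 85.1, 38.96, 40.4, 30.8 and 15.7 CPM in high-fat water, against 5.34, 14.5, 20.3, 11.4 and 33.7 in chow water. The groups overlapped, with replicate 1 of high-fat water highest, and Ccr2 was not called (log2 1.31, SE 0.47, adjusted p = 0.0679).

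Macrophage markers moved in part with these genes. Of 12 tested, Adgre1, Fcgr1 and Cd68 were higher and Mertk lower in high-fat water. Their sum was 1404 to 3304 CPM in high-fat water, highest in replicate 1, and 663 to 2170 in chow water. High-fat water replicate 1 was also the highest of all 20 libraries for 12 of the 47 chemokine and receptor genes, among them Ccl2, Ccl7, Ccr2 and Ccr7, beside 10.6% of all genes tested. Of 6 monocyte markers 0 were higher and 1 lower, with sums of 107.4 to 169.4 CPM in high-fat water and 125.2 to 1194 in chow water. The 1194 CPM was that of chow water replicate 1, and the next highest was 173.5 CPM in replicate 3. No marker of the macrophage list was at 0 in any library, and the part of macrophage or monocyte number in these results was not tested.

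None of the 7 CXC, CX3C and XC receptors or the 4 atypical receptors was called. Cxcr4 stood at 17.9, 31.5, 31.98, 125 and 20.3 CPM in high-fat water, against 8.44, 10.6, 26.8, 16.02 and 12.8 in chow water. The highest value was in replicate 4 of high-fat water, the library with genital and adrenal transcripts, and the groups overlapped (log2 1.60, SE 0.63, adjusted p = 0.0928; 0.62, adjusted p = 0.46, without the 3 libraries with transcripts of other organs). Cx3cr1 (chromosome 9, 119730682 to 119898945, minus strand), the fractalkine receptor of monocytes and microglia, stood at 3.11, 1.04, 0.689, 7.596 and 0.593 CPM in high-fat water, against 6.45, 0.779, 0.372, 0.966 and 0.628 in chow water. High-fat water replicate 4 and chow water replicate 1 stood above the rest of their groups, and Cx3cr1 was not called (log2 0.52, SE 0.84, adjusted p = 0.717). Its log2 value without the 3 libraries with transcripts of other organs was 0.98, adjusted p = 0.302, with no call either.

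Ackr3 (chromosome 1, 90131702 to 90144473, plus strand) stood at 67.4, 84.96, 112, 54.8 and 87.1 CPM in high-fat water, against 23.5, 46.9, 48.5, 47.4 and 81.0 in chow water. The groups overlapped, and Ackr3 was not called (log2 0.72, SE 0.28, adjusted p = 0.086). The scavengers Ackr1, Ackr2 and Ackr4 lay between -0.39 and 0.49, and 25.7% of the exonic bases of Ackr1 overlap Cadm3 on the same strand.

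Tea was then compared with water in mice on the high-fat diet. Ccl2, Ccl7, Cxcl14, Ccr2 and Ccr7 had lower means in high-fat tea than in high-fat water, and Cxcl13 had a higher mean. None of these differences was called. By edgeR's quasi-likelihood test 0 of the 47 genes were called, beside 4.36% of all genes tested (2.06% higher and 2.3% lower). At an unadjusted p under 0.05 there were 10, and the lowest adjusted p was 0.0552. DESeq2 called 5 of 60 (Ccr2, Ccr7, Cxcl14 and Cxcr4 lower, Cxcl13 higher), beside 2223 of all 37726 genes entered. The median log2 fold change was -0.17, beside 0.02 over all genes, with 17 values above 0 and 30 below. The high-fat water libraries enter both this comparison and the one above, so opposite signs in the pair are partly set by the shared libraries.

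Ccl2 stood at 4.02, 4.23, 3.18, 1.497 and 5.52 CPM in high-fat tea, against 18.4, 6.56, 7.61, 5.09 and 4.26 in high-fat water. The groups overlapped (log2 -1.19, SE 0.58, adjusted p = 0.224). Ccl7 stood at 2.05, 1.73, 1.97, 0.648 and 2.74 CPM in high-fat tea, against 11.7, 2.07, 4.02, 2.81 and 2.85 in high-fat water (log2 -1.36, SE 0.59, adjusted p = 0.173). In both genes replicate 4 was the lowest high-fat tea library. Of the 12 macrophage markers 0 were called, and their sum was 670.3 to 2089 CPM in high-fat tea and 1404 to 3304 in high-fat water. Of the 6 monocyte markers 0 were called, with sums of 131.8 to 237.5 CPM in high-fat tea and 107.4 to 169.4 in high-fat water. The part of macrophage or monocyte number in these differences was not tested.

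Ccr2 stood at 14.2, 20.9, 14.97, 14.5 and 20.3 CPM in high-fat tea, against 85.1, 38.96, 40.4, 30.8 and 15.7 in high-fat water. All high-fat tea libraries lay below 4 of the 5 high-fat water libraries (log2 -1.31, SE 0.47, adjusted p = 0.105).

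Ccr7 stood at 0.628, 0.765, 0.9398, 1.22 and 0.984 CPM in high-fat tea, against 2.97, 1.62, 2.28, 1.29 and 1.22 in high-fat water. It was the 1 gene of the 47 whose groups did not overlap, beside 5.55% of all genes (2.37% higher and 3.18% lower), and the highest high-fat tea value, 1.219 CPM, lay just below the lowest high-fat water value, 1.222 CPM (log2 -1.05, SE 0.32, adjusted p = 0.0681). Without the 3 libraries with transcripts of other organs Ccr7 was called lower (log2 -1.29, adjusted p = 0.0426).

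Cxcl13 stood at 11.8, 63.1, 26.3, 4.77 and 6.85 CPM in high-fat tea, against 11.04, 3.16, 4.82, 1.16 and 2.46 in high-fat water. Replicates 1, 2 and 3 of high-fat tea lay above all high-fat water libraries, replicate 1 narrowly, and replicates 4 and 5 within their range (log2 2.32, SE 0.69, adjusted p = 0.0603). The value was 1.46 without high-fat tea replicate 2, and Cxcl13 was called without high-fat tea replicate 4 (2.58) or 5 (2.55) and without the 3 libraries with transcripts of other organs (2.33). Of the 7 mesothelial markers 0 were called, and their sum was 83.2 to 380 CPM in high-fat tea, highest in replicate 2, and 35.1 to 140.5 in high-fat water. The part of mesothelial cells in this difference was not tested.

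Cxcl14 stood at 33.9, 15.3, 10.5, 9.32 and 15.4 CPM in high-fat tea, against 39.6, 31.5, 19.9, 28.1 and 45.2 in high-fat water. High-fat tea replicate 1 lay inside the range of high-fat water and the other 4 below it (log2 -0.96, SE 0.32, adjusted p = 0.0827). Without high-fat tea replicate 1, the library that overlapped, Cxcl14 was called lower (log2 -1.38, adjusted p = 0.0155). That library held 32590 CPM of muscle genes. High-fat water replicate 5, the highest for Cxcl14, held 28550 CPM of them and was kept in that fit. Replicate 3 of high-fat tea (8122 CPM) and of high-fat water (4216 CPM) were kept too.

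Cxcr4 stood at 18.2, 8.36, 8.28, 5.08 and 29.3 CPM in high-fat tea, against 17.9, 31.5, 31.98, 125 and 20.3 in high-fat water, and the groups overlapped (log2 -1.71, SE 0.64, adjusted p = 0.114; -0.66, adjusted p = 0.507, without the 3 libraries). It was called lower without high-fat tea replicate 5. Its ligand Cxcl12 stood at 529.5, 378, 448, 267 and 415 CPM in high-fat tea, against 353, 384, 337, 245 and 383 in high-fat water, with overlapping groups (log2 0.26, SE 0.23, adjusted p = 0.535). Ackr3 stood at 85.5, 46.4, 54.95, 52.2 and 80.9 CPM in high-fat tea, against 67.4, 84.96, 112, 54.8 and 87.1 in high-fat water (log2 -0.34, adjusted p = 0.485). The 2 receptors of CXCL12 thus both had a lower mean in high-fat tea, and neither difference passed the test.

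The remaining genes given by library overlapped between high-fat tea and high-fat water. Cxcl1 stood at 1.52, 0.966, 2.87, 1.57 and 2.44 CPM in high-fat tea, against 3.21, 3.41, 2.04, 3.23 and 1.76 in high-fat water (log2 -0.54, adjusted p = 0.622). Ccl25 stood at 5.795, 5.21, 3.195, 7.61 and 5.49 CPM in high-fat tea, against 3.76, 4.97, 3.55, 3.57 and 5.62 in high-fat water (log2 0.35, adjusted p = 0.839). Cxcl9 stood at 61.3, 40.2, 31.6, 25.3 and 86.2 CPM in high-fat tea, against 72.7, 93.2, 58.7, 49.0 and 80.3 in high-fat water (log2 -0.53, adjusted p = 0.389). In each of these 3 the range within high-fat tea was wider than the difference in means. Ccl6 stood at 156, 76.6, 237, 52.1 and 202 CPM in high-fat tea, against 293, 164, 257, 96.7 and 126 in high-fat water (log2 -0.37, adjusted p = 0.623). Ccl11 stood at 102, 73.1, 108, 39.6 and 146 CPM in high-fat tea, against 99.9, 103, 132, 62.97 and 108 in high-fat water (log2 -0.11, adjusted p = 0.845). Cx3cr1 stood at 0.768, 1.87, 1.56, 3.04 and 0.336 CPM in high-fat tea, against 3.11, 1.04, 0.689, 7.596 and 0.593 in high-fat water (log2 -0.78, adjusted p = 0.623; -0.26, adjusted p = 0.858, without the 3 libraries with transcripts of other organs). Replicate 4 of high-fat tea was the lowest of its group for Ccl6 and Ccl11 and the highest for Cx3cr1.

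**Figure D2:**
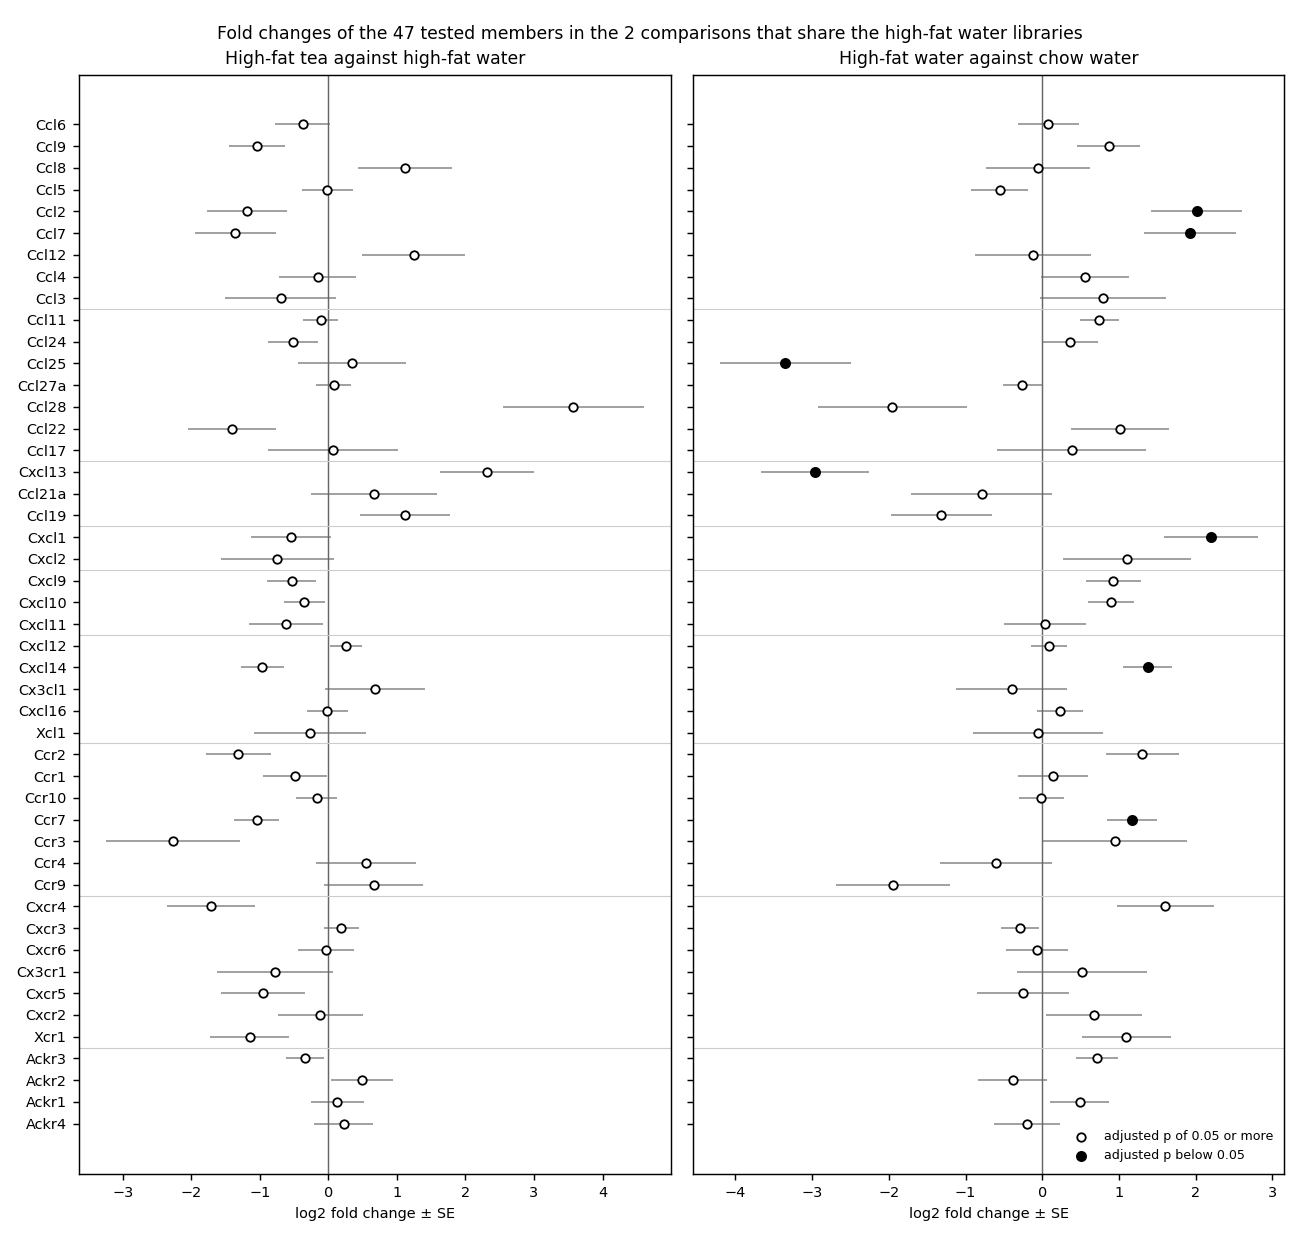
Log2 fold change with its SE for the 47 tested genes, high-fat tea against high-fat water on the left and high-fat water against chow water on the right, with filled dots where the adjusted p lies below 0.05. No dot is filled on the left and 7 are filled on the right, and both panels use the same 5 high-fat water libraries.

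Tea was compared with water in mice on chow. The chow tea and chow water libraries overlapped for all 47 genes, beside 2.56% of all genes without overlap (1.59% higher and 0.972% lower). By edgeR's quasi-likelihood test 0 of the 47 genes were called, beside 0.0235% of all genes (0.0188% higher and 0.00469% lower), with 6 at an unadjusted p under 0.05 and 0 by DESeq2. The median log2 fold change was -0.09. Ccl25 had the lowest adjusted p, 0.193, and its log2 value of -3.02 rested on chow water replicate 1, being -0.29 without it.

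In chow tea Ccl2 stood at 5.63, 1.35, 1.91, 4.47 and 0.484, Ccl7 at 3.99, 0.764, 1.26, 2.08 and 0.444 and Cxcl1 at 4.36, 0.689, 1.11, 1.73 and 0.229 CPM. Replicate 1 was the highest chow tea library in all 3. The chow water values of these genes are given above, and the differences had log2 values of 0.41, 0.47 and 1.45 and adjusted p of 0.838, 0.811 and 0.323. Cxcl13 stood at 79.6, 27.2, 49.1, 33.95 and 49.1 CPM in chow tea (log2 0.44 against chow water, adjusted p = 0.855), and Cxcl14 at 5.95, 8.23, 11.03, 10.6 and 14.1 CPM (log2 -0.34, adjusted p = 0.716). Both overlapped chow water.

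Ccr2 stood at 11.8, 14.9, 40.9, 10.6 and 20.7 and Ccr7 at 0.8896, 1.72, 1.38, 0.702 and 0.645 CPM in chow tea. Replicate 3 was the highest chow tea library for Ccr2, and the log2 values against chow water were 0.22 for Ccr2 and 0.36 for Ccr7 (adjusted p 0.912 and 0.708). Cxcr4 stood at 17.4, 28.8, 4.88, 18.7 and 4.34, Cx3cr1 at 1.08, 0.779, 3.06, 0.783 and 0.645 and Ackr3 at 38.6, 50.4, 55.98, 33.2 and 31.04 CPM in chow tea, with log2 values of -0.01, -0.52 and -0.24 (adjusted p 0.999, 0.87 and 0.788). Cxcr4 spread widely among the 5 chow tea libraries, and none of these receptors passed the test.

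Cxcl12 stood at 449, 369, 488, 428 and 623 CPM in chow tea, with a mean of 472 ± 95.3 against 319.7 ± 112 CPM in chow water (SD, n = 5 each; log2 0.56, SE 0.23, adjusted p = 0.323). Ccl6 stood at 239.8, 212, 242, 117 and 131, Ccl11 at 60.04, 68.7, 70.2, 61.5 and 59.1 and Ccl25 at 4.34, 5.32, 5.77, 7.04 and 4.57 CPM in chow tea. Cxcl9 stood at 20.6, 40.7, 35.1, 37.6 and 40.6 CPM there, with replicate 1 below the other 4. Log2 values against chow water were 0.09 for Ccl6, 0.08 for Ccl11 and -0.10 for Cxcl9. Ccl11 had its narrowest spread in chow tea, with an SD of 5.14 CPM.

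High-fat tea was also compared with chow tea. By edgeR's quasi-likelihood test 0 of the 47 genes were called, beside 0.178% of all genes (0.0375% higher and 0.141% lower), with 6 at an unadjusted p under 0.05 and 0 by DESeq2. The groups did not overlap for 1 gene, beside 2.77% of all genes (1.19% higher and 1.59% lower). It was Cxcl16, a membrane-bound ligand of CXCR6, named here because of this value, at 7.74 to 22.5 CPM in high-fat tea and 4.82 to 7.17 in chow tea (log2 0.84, adjusted p = 0.196). The highest value was that of high-fat tea replicate 4, the library with kidney transcripts, and without the 3 libraries with transcripts of other organs the log2 value of Cxcl16 was 0.42 (adjusted p = 0.25). Reads of Cxcl16 can include some from Zmynd15, since 18.3% of its exonic bases overlap that gene on the opposite strand. Log2 values were 0.42 for Ccl2, 0.10 for Ccl7, 0.21 for Cxcl1, 0.76 for Cxcl14, -0.24 for Ccr7 and -1.08 for Cxcl13 (adjusted p from 0.247 for Cxcl14 to 0.954 for Ccl7). Ccl11 was called higher in high-fat tea without the 3 libraries with transcripts of other organs (log2 0.75, adjusted p = 0.0366), where the value over all libraries was 0.55 (adjusted p = 0.296).

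The interaction asks whether the tea difference was unequal between the diets. By edgeR's quasi-likelihood test 0 of the 47 genes were called, beside 0.0657% of all genes (0.0329% positive and 0.0329% negative), with 7 at an unadjusted p under 0.05, a lowest adjusted p of 0.129 and 0 by DESeq2. The tea difference on the high-fat diet minus that on chow was -1.41 for Ccr7 (SE 0.46, adjusted p = 0.153), -1.53 for Ccr2 (SE 0.66, adjusted p = 0.281) and 1.88 for Cxcl13 (SE 0.93, adjusted p = 0.357). A different response to tea on the 2 diets was therefore not shown for any of the 47 genes.

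Of the 47 genes, 9 had their highest value in 1 of the 3 libraries with transcripts of other organs, beside 39.9% of all genes tested, so the share was below the background. That count takes highest values only, and what follows covers the genes given by library. Chow water replicate 1 was the lowest of its group for Ccl2, Ccl7, Ccl6, Ccl11, Cxcl9, Cxcl12, Cxcl13, Ccr2, Cxcr4 and Ackr3. It was the highest for Ccl25, Cx3cr1 and Cxcl14. High-fat tea replicate 4 was the lowest for Ccl2, Ccl7, Ccl6, Ccl11, Cxcl9, Cxcl12, Cxcl13, Cxcl14 and Cxcr4. It was the highest for Ccl25, Cx3cr1 and Ccr7. High-fat water replicate 4 was the lowest of its group for Ccl6, Ccl11, Cxcl9, Cxcl12, Cxcl13 and Ackr3. It was the highest for Cxcr4 and Cx3cr1. The part of other-organ RNA in the low values was not tested. Of the 8 genes whose highest library was over 2 times the next, 4 peaked in these 3 libraries. Ccl28, a mucosal chemokine, Cx3cl1, the membrane-bound ligand of CX3CR1, and Ccr9 are named here because of these values. Ccl28 stood at 0.698, 1.95, 1.302, 41.4 and 0.8095 CPM in high-fat tea, 0.526, 0.3998, 0.7498, 1.61 and 0.569 in high-fat water, 1.17, 1.45, 1.51, 1.49 and 1.13 in chow tea and 8.86, 1.66, 1.102, 1.67 and 1.78 in chow water. The value of high-fat tea replicate 4, the library with kidney transcripts, was 4.67 times that of the next library, chow water replicate 1. With all libraries Ccl28 was not called in high-fat water against chow water (log2 -1.95, adjusted p = 0.18) or in high-fat tea against high-fat water (log2 3.58, adjusted p = 0.0552). Without the 3 libraries the spread shrank, and Ccl28 was called lower in high-fat water against chow water (log2 -1.47, adjusted p = 0.00457) and higher in high-fat tea against high-fat water (log2 1.09, adjusted p = 0.0447).

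Cx3cl1 reached 66.8 CPM in high-fat tea replicate 4, 33.7 in high-fat water replicate 4 and 36.9 in chow water replicate 1, and at most 14.1 CPM in each of the other 17 libraries. Without the 3 libraries it was called lower in high-fat water against chow water (log2 -0.71, adjusted p = 0.0421), where the value over all libraries was -0.40 (adjusted p = 0.749). Without those libraries 8 of 48 genes were called between high-fat water and chow water, beside 4546 of all 21409 genes tested. Of the 8, 5 were among the 7 called with all libraries. Cxcl1 missed the threshold there (log2 2.02, adjusted p = 0.054). Leaving out the 9 libraries with the most transcripts of other organs left 2 high-fat water and 3 chow water libraries. In that fit 2 of 48 genes were called, Ccl28 and Cxcl14, beside 2052 of all 22311 genes tested. Smaller sums stayed in libraries that were kept, such as 580.3 CPM of kidney genes in chow tea replicate 3.

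**Figure D3:**
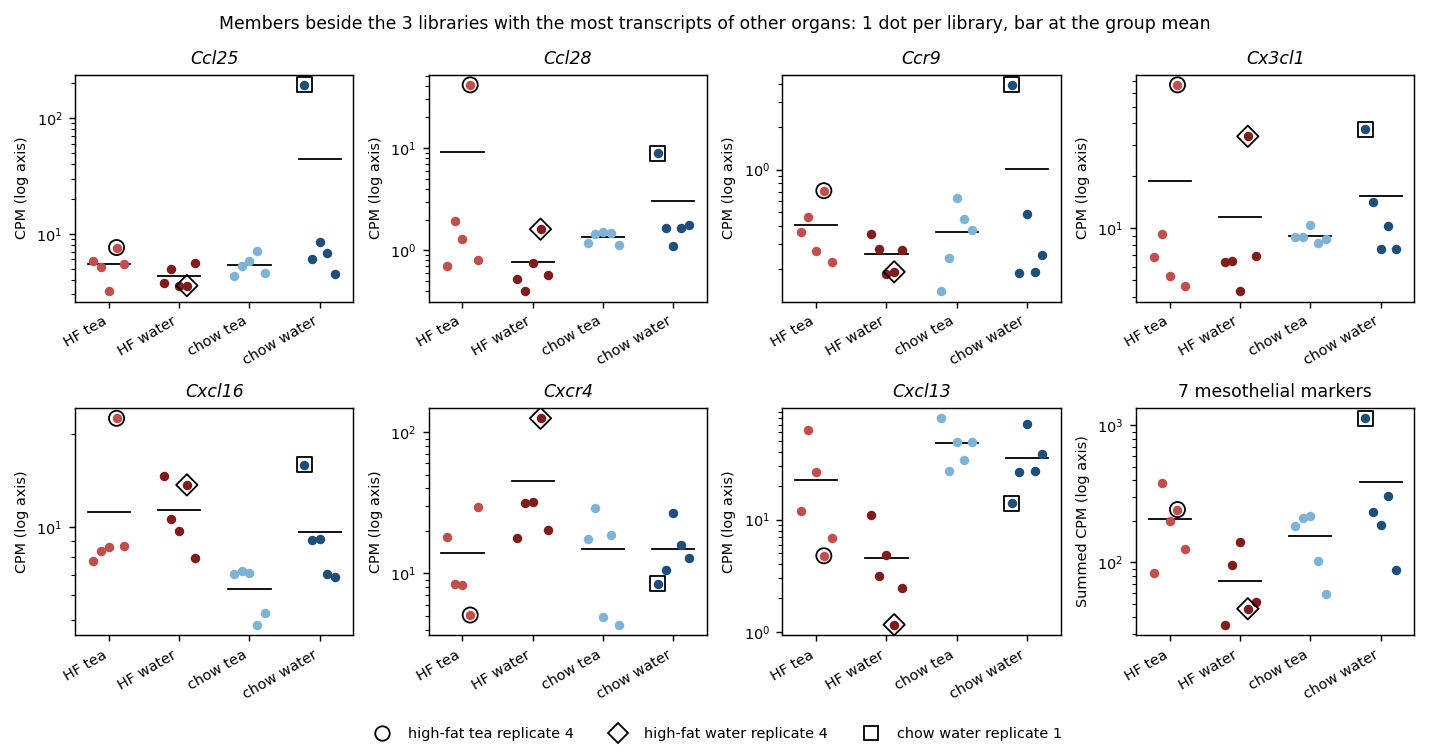
Levels of 7 genes and the sum of 7 mesothelial markers in CPM on log axes, 1 dot per library, a bar at each group mean and open symbols around the 3 libraries with the most transcripts of other organs. The marked libraries hold the highest Ccl25, Ccl28, Ccr9, Cx3cl1, Cxcl16 and Cxcr4 values, but not the highest Cxcl13 values.

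Genes that act behind the receptors were read from a list of 40, all of them tested. In high-fat water against chow water 15 were higher and 0 lower, beside 8.06% higher and 7.11% lower of all genes, with a median log2 fold change of 0.51. Of the 12 macrophage markers 3 were higher and 1 lower, with sums of 1404 to 3304 CPM in high-fat water and 663 to 2170 in chow water, and their part in this count was not tested. Pik3cd, a phosphoinositide 3-kinase of leukocytes (log2 1.08, SE 0.21, adjusted p = 0.00373), Fgr, a Src family kinase of myeloid cells (log2 1.51, SE 0.31, adjusted p = 0.00494), and Lyn, another Src family kinase (log2 0.81, SE 0.17, adjusted p = 0.00501), had the lowest p and were called in all 10 fits without 1 library. The number higher in those fits was 7 to 14, lowest when high-fat water replicate 1 or replicate 2 of chow water was absent. Without the 3 libraries with transcripts of other organs 20 were higher and 1 lower.

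In high-fat tea against high-fat water 0 of the 40 were higher and 5 lower, beside 2.06% higher and 2.3% lower of all genes, with a median of -0.55. The macrophage marker sums were 670.3 to 2089 CPM in high-fat tea and 1404 to 3304 in high-fat water, with 0 of 12 markers called, and their part in this count was not tested. The 3 with the lowest p were Lyn (log2 -0.74, SE 0.17, adjusted p = 0.0231), Fgr (log2 -1.34, SE 0.31, adjusted p = 0.0255) and Pik3r5, a regulatory subunit of the G-protein-linked phosphoinositide 3-kinase (log2 -1.19, SE 0.30, adjusted p = 0.0314). The number lower was 0 to 12 over the fits without 1 library, 0 without replicate 3 of high-fat tea or replicate 1 or 2 of high-fat water, and 12 without high-fat tea replicate 5. Without the 3 libraries with transcripts of other organs 10 were lower and 1 higher. In the other 3 comparisons 0 of the 40 were called by the same test.

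Of 9 tested relatives outside the naming rule, 1 was higher in high-fat water than in chow water and 0 lower. All genes tested stood at 8.06% higher and 7.11% lower. The 1 was Cd74, a receptor of macrophage migration inhibitory factor and the chaperone of MHC class II (log2 0.83, SE 0.25, adjusted p = 0.0361). In high-fat tea against high-fat water Cd74 was lower (log2 -0.97, SE 0.26, adjusted p = 0.0398), as was Gpr35, a G protein-coupled receptor (log2 -1.65, SE 0.42, adjusted p = 0.0338). These 2 of 9 lower and 0 higher stood beside 2.3% lower and 2.06% higher of all genes. Over the fits that left out 1 library, 0 to 2 of the 9 were higher in high-fat water than in chow water, and 0 to 2 were lower in high-fat tea than in high-fat water. The Cd74 call against chow water was lost without chow water replicate 1, 2 or 4 or replicate 1, 2 or 3 of high-fat water. Both calls in high-fat tea were lost without replicate 2, 3 or 4 of high-fat tea or replicate 1, 2 or 3 of high-fat water, and that of Cd74 also without high-fat tea replicate 1. Of 16 genes that cut, hold or present chemokines, 2 were higher and 1 lower in high-fat water than in chow water. All genes tested stood at 8.06% higher and 7.11% lower. Mmp12, macrophage elastase (log2 7.45, SE 0.99, adjusted p = 0.000279), and Sdc3, a heparan sulphate carrier (log2 1.22, SE 0.28, adjusted p = 0.00822), were higher. Sdc4, another such carrier, was lower (log2 -1.70, SE 0.36, adjusted p = 0.00555). In high-fat tea against high-fat water Sdc4 was higher (log2 1.30, SE 0.36, adjusted p = 0.0472), and Mmp12 (log2 -3.33, SE 0.81, adjusted p = 0.0289) and Adam17, a sheddase (log2 -0.43, SE 0.12, adjusted p = 0.0429), were lower. These 2 of 16 genes lower and 1 higher stood beside 2.3% lower and 2.06% higher of all genes. Over the fits that left out 1 library, 0 to 2 of the 16 genes were lower and 0 to 1 higher in high-fat tea. The part of macrophage number in the results for the 9 and the 16 genes was not tested.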

How the data were processed

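The authors deposited raw read counts per gene for each of the 20 libraries. Per the file headers, featureCounts 2.0.6 counted reads of pairs singly, without a strand option, over GENCODE vM32 gene names on GRCm39. Per the submitters' processing notes, fastp 0.23.2 and HISAT2 2.2.1 were also used and the build was mm10, so the build is stated in 2 ways, and positions are those of the headers. Per the labels' protocols, RNA was extracted with TRIzol and libraries were made with a stranded mRNA kit.

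The counts were analysed with edgeR 4.0.16 in R 4.3.3: filterByExpr (minimum count 10, minimum total 15), TMM scaling, and quasi-likelihood tests on the means of 4 groups over all 20 libraries. Benjamini-Hochberg adjustment covered 21306 genes, and 35499 genes were removed by the filter. The SE is the log2 fold change divided by the square root of F. The test was tested on simulated data. Libraries held 53047057 to 93314761 counts. Counting both reads of a pair makes counts less independent than their number, and halved counts were an alternative. Other alternatives were DESeq2 1.42.0, RLE size factors, no filter, a replicate block, the compared groups alone, and libraries left out. The deposited replicates differed by more than sampling noise.

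Genes with a value for every library were those called in any comparison, the most abundant of each role per kilobase, and Ccl2, Ccr2, Cxcl12 and Cx3cr1. Up to 3 genes of each pathway list were named per comparison. A gene that the naming rule takes is not reported here and is left out of the counts over the set, while the tests ran on all genes. Genes named outside this rule are marked as such. The members and lists were chosen with earlier results of these data known. Nothing in the sources says more about the separateness of the mice than 5 per group. Promoters came from RefSeq on GRCm38.p6.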

Additional observations from a re-analysis of the deposited data

Results flagged for a closer look

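For the 15 genes given by library, a group of 5 was picked out when the gap between its highest or lowest library and the nearest one, divided by the range of the group, exceeded 0.71. This held for 8 of 60 sets of CPM values and for 2 on the log2 scale, those of Ccl25 and Cxcl9. Chance gives about 1 in 20 only for independent sets of normally distributed values. The 60 sets share the same 20 libraries, so these counts cannot be set against that rate.

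In high-fat water replicate 1, Ccl2 stood at 18.43 CPM beside a nearest 7.605 and Ccl7 at 11.73 CPM beside 4.024. Cxcr4 stood at 125.2 CPM in high-fat water replicate 4, beside 31.98. In high-fat tea replicate 1, Cxcl14 stood at 33.89 CPM beside 15.39. Cx3cr1 stood at 3.064 CPM in chow tea replicate 3, beside 1.081, and at 6.45 CPM in chow water replicate 1, beside 0.9663. In chow tea replicate 1, Cxcl9 was the lowest at 20.6 CPM beside 35.06. Ccl25 stood at 193.1 CPM in chow water replicate 1, beside 8.496.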

How the results depend on the processing

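Of the 47 genes, 7 were called in high-fat water against chow water. The number of genes entered changed with the setting. The count was 4 of 60 with no filter on low counts, beside 2164 of all 37726 genes entered. It was 2 of 48 without the 9 libraries with the most transcripts of other organs, beside 2052 of 22311 genes. DESeq2 gave 11 of 60, beside 4194 of 37726. Leaving out 1 library gave from 3 of 48 without chow water replicate 4 to 10 of 48 without chow water replicate 5. Beside these stood 2442 of 21758 and 3445 of 21794 genes. In high-fat tea against high-fat water, where 0 were called, it was 1 of 44 with counts halved, beside 1140 of 19073 genes. It was 3 of 48 without the 3 libraries with most transcripts of other organs, beside 1602 of 21409. DESeq2 gave 5 of 60, beside 2223 of 37726. With 1 library left out it was 0 to 3, and the 3 of 48 without high-fat tea replicate 5 stood beside 2017 of 21777. In high-fat tea against chow tea it was 1 of 48 without those 3 libraries with most transcripts of other organs, beside 292 of 21409 genes. The causes were not tested. Of the differences with no call, some changed sign. In chow tea against chow water without the 9 libraries the log2 value was -0.23 for Ccl2, -0.30 for Ccl7 and -0.21 for Cxcl13. In high-fat tea against chow tea the Ccl25 value was -0.081 with a replicate block, -0.14 without the 3 libraries and -0.09 without the 9. With 1 library left out, chow tea against chow water ran from -0.016 to 0.69 for Ccl2 and -0.11 to 0.72 for Ccl7. High-fat tea against chow tea ran from -0.14 to 0.16 for Ccl25, -0.15 to 0.68 for Ccl7, -0.37 to 0.004 for Ccr7 and -0.071 to 0.996 for Cxcl1.

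Whether replicate numbers pair the mice was not settled. Same-numbered libraries correlated at -0.27 to 0.475 in their deviations, above 0.1 in 9 of 30 pairs, and differently numbered libraries were not compared. With the replicate block 6 of 47 genes were called in high-fat water against chow water, beside 2611 of all 21306 genes. Of the 6, 4 were among the 7, and 0 were called in each of the other 4 comparisons. Cxcl1 rested on 12 to 107 reads per chow water library and Ccr7 on 25 to 80.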
